A study of Mus musculus with 9 samples.

Results

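The platelet glycoprotein genes Gp1ba, Gp1bb, Gp9, Gp5, Gp6, Clec1b and Treml1 were examined in RNA-seq libraries of endothelial cells (ECs) from mouse bone marrow (BM). The 7 genes were taken by gene name from the 46078 genes of the deposited count table, and all 7 were measured and passed the filter on low counts. The libraries came from normal wild type B6 mice without treatment, whose age is not given in the sources used here. Cells negative for CD45 and Ter119 and positive for CD31 were sorted into a Sca-1+ fraction (4 libraries, named here by the last number of their labels as 7, 13, 15 and 19) and a Sca-1- fraction (5 libraries, 8, 10, 14, 16 and 22). The labels of libraries 8, 15, 16 and 19 hold the tag wt, and those of 10, 13, 14 and 22 hold another tag. In 13, 14 and 22 that tag starts with CD45, and library 7 has neither tag. The labels do not explain the tags, and a difference between them was not tested. Arteries and arterioles are lined by cells high in Sca-1 and sinusoids by cells low in it, and the comparison asks how the transcripts of the fractions differ. RNA was amplified from poly(A) tails without molecular identifiers, so reads include PCR copies, and limits set by depth cover counting error only. The labels do not say that each library came from its own animal, so p-values measure only the spread between these libraries. Libraries 15 and 16 share a further number in their labels, which do not say whether it names a mouse.

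Platelets, which megakaryocytes of the BM release, hold on to injured vessels through these receptors. GPIbα, GPIbβ, GPIX and GPV (genes Gp1ba, Gp1bb, Gp9 and Gp5) are leucine-rich repeat proteins that form the GPIb-IX-V complex, the receptor for von Willebrand factor, and loss of GPIbα, GPIbβ or GPIX causes Bernard-Soulier syndrome, a bleeding disorder with giant platelets. GPVI (Gp6) binds collagen and signals through the Fc receptor γ chain, and CLEC-2 (Clec1b), a C-type lectin, binds podoplanin and signals through its own tail, which keeps lymph vessels apart from blood vessels during development. TLT-1 (Treml1) is a receptor of the TREM family stored in platelet α-granules. These genes are classical markers of the megakaryocyte lineage, and Clec1b is also known from the sinusoidal endothelium of the liver.

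The genes lie on 5 chromosomes of GRCm38. Gp1ba (ENSMUSG00000050675) is on chromosome 11 from 70639122 to 70642036, and Gp9 (ENSMUSG00000030054) on chromosome 6 from 87778072 to 87779768. Gp1bb (ENSMUSG00000050761) and Gp5 (ENSMUSG00000047953) are both on chromosome 16, from 18620317 to 18622403 and from 30307685 to 30310779, with 11685281 bases between them. Gp6 (ENSMUSG00000078810) is on chromosome 7 from 4363965 to 4397744, Clec1b (ENSMUSG00000030159) on chromosome 6 from 129397297 to 129409335 and Treml1 (ENSMUSG00000023993) on chromosome 17 from 48359916 to 48367176. In each of the 4 genes of the GPIb-IX-V complex the coding sequence lies in 1 exon (531 bases in Gp9, 642 in Gp1bb, 1701 in Gp5 and 2202 in Gp1ba), whereas Gp6 has 8 coding exons and Clec1b and Treml1 have 6 each. In GENCODE M21 the exons of Gp1bb overlap those of Sept5 on the same strand over 91.1% of their length. Those of Clec1b overlap Clec9a over 3.6%. With that annotation reads in the shared parts could not be assigned to a gene. The annotation behind the deposited counts is not given in the sources used here, so the level of Gp1bb in particular is uncertain. Sept5 was counted at 29 to 141 reads, while Gp1bb had 38887 to 65668 reads in the Sca-1- libraries.

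Because the genes moved together, the 250 bases before each start site were searched for words bound by GATA factors (the letters AGATAA or AGATAG, and likewise TGATAA or else TGATAG) and by ETS factors (AGGAAG or else CGGAAG), on both strands. Matches of the kinds did not overlap each other in these windows. A GATA word was present in 5 of the 7 windows and in 26.5% of 32851 RefSeq windows of the same length. An ETS word was present in 4 of the 7 and in 39.2% of all windows, and 3 genes (Gp1ba, Gp1bb and Gp5) had both, as did 9.21% of all windows. Unlike the windows of the other members, that of Gp1bb overlaps 3 annotated untranslated regions of transcripts. The last 150 bases before the start are shown for Gp1ba and Gp5, whose windows held the most matches, and for Gp9, which had an ETS word alone. Capitals mark the words, and the sequences are from RefSeq on GRCm38.p6, 5′ to 3′ in the direction of the gene (chr11:70638972-70639121, plus strand; chr16:30310782-30310931, minus strand; chr6:87777920-87778069, plus strand).
Gp1ba: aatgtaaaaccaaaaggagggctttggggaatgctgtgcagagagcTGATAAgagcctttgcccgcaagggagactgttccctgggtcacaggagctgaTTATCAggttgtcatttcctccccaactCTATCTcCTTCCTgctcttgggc
Gp5: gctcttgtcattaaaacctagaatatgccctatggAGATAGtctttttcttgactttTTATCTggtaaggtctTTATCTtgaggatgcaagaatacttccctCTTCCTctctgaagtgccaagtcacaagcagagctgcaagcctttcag
Gp9: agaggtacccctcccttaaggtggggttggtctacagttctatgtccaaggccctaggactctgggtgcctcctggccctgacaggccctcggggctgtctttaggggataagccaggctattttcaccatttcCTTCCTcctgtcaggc
The words are matches of letters only, and binding of a factor was not measured. In Gp1ba and Gp9 the ETS word began 16 bases before the start, and the 3 GATA words of Gp1ba began 104, 51 and 23 bases before it. Gp6 and Clec1b each had 1 GATA word, 144 and 189 bases before the start, and Treml1 had neither kind.

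Each library held between 21581653 and 25959818 counts, and levels are given as CPM, the counts relative to the library size after TMM scaling in edgeR. The TMM factors ran from 1.12 to 1.22 in Sca-1+ and from 0.581 to 1.16 in Sca-1- libraries. A library at 3 counts or fewer was taken as at the floor, which lay between 0.0996 and 0.209 CPM. Ly6a, which encodes Sca-1, was at 1133 ± 187 CPM (SD, n = 4) in Sca-1+ and 0.678 ± 0.524 CPM (SD, n = 5) in Sca-1- libraries. Of 18 endothelial markers, 17 were higher in Sca-1+ libraries, where the list made up 0.823% to 1.14% of all counts against 0.0967% to 0.152% in Sca-1- libraries. A list of 16 megakaryocyte markers that holds none of the 7 genes made up 3.28% to 6.80% of the Sca-1- counts and 0.0248% to 0.0428% of the Sca-1+ counts, with all 16 lower in Sca-1+, and no marker of either list was at 0 throughout a fraction. The fraction is labelled endothelial, but it held more reads of these megakaryocyte markers than of the endothelial ones, and it is called here by its sort. Leukocyte markers (8 of 10 lower in Sca-1+) summed to 0.0269% to 0.0334% in Sca-1+ and 0.228% to 0.423% in Sca-1- libraries, and erythroid markers (8 of 11 lower) to 0.0126% to 0.0261% and 0.0705% to 0.139%. Neutrophil markers (1 of 10 lower) summed to 9.7e-04% to 0.0880% and 0.0150% to 0.0748%. Of B and plasma cell markers 3 of 5 tested were lower, from 1.7e-04% to 0.00520% against 6.9e-04% to 0.0287%, with Ms4a1 among those at 0 throughout Sca-1+. Sca-1+ library 19 stood apart in Itgb2, at a log2 CPM of 2.95 against -1.01 to -0.68 in the other Sca-1+ libraries. It did not stand apart in the leukocyte sum, which in Sca-1+ came mostly from Lcp1 and Arhgdib. Yet every leukocyte marker but Lcp1 had its highest Sca-1+ CPM in library 19. Cd52 was at 16.6 CPM there against at most 0.307 in the others, and Coro1a at 15.2 against at most 3.75. Of the neutrophil markers library 19 had Ngp at 239 CPM and S100a9 at 182 CPM, against at most 2.35 and 1.62 in the other Sca-1+ libraries. Elane and Mpo were instead highest in library 7 among the Sca-1+ libraries. The part of these lists in the results below was not tested, and in sorted bulk RNA fewer cells of a type and less RNA per cell cannot be told apart. The running numbers that open the labels form separate series in the fractions, so a batch that follows them and the fraction cannot be told apart.

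All 7 platelet glycoprotein genes were lower in the Sca-1+ fraction, by 812-fold to 3433-fold in mean CPM. Their summed reads were 0.625% to 1.58% of each Sca-1- library and 6.4e-04% to 0.00183% of each Sca-1+ library. Their adjusted p was under 0.05 in each case in edgeR's quasi-likelihood test (two-sided, Benjamini-Hochberg over 15937 genes), in which 21.4% of all genes tested were lower and 23.3% higher in Sca-1+. For each of the 7 every Sca-1+ library lay under every Sca-1- library, as was so for 18.8% of all genes tested. The direction and the call held in the 20 alternatives run, in which the adjusted p of the 7 genes ranged from 1.2e-89 to 0.0031. Without Sca-1+ library 19 the log2 fold change of Gp1ba was -11.38 and the log2 fold change of Clec1b was -9.37, the largest and the smallest of the 7. Of the genes called, 47.9% were lower in Sca-1+ with TMM, 36.9% with library size only and 98.3% with libraries scaled to the endothelial markers, settings that moved the median log2 fold change of all genes from 0.07 to 0.43 and to -4.27.

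**Figure D1:**
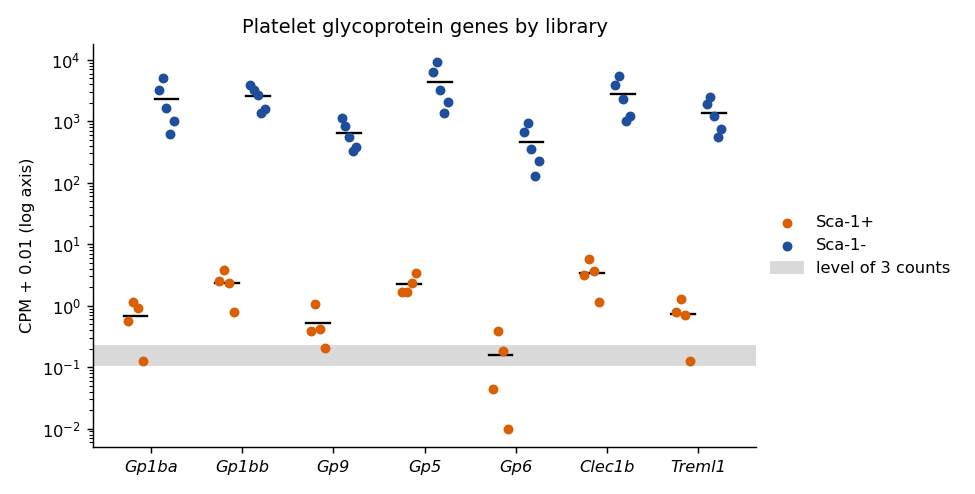
Level of each platelet glycoprotein gene in each library, as CPM + 0.01 on a log axis. Points are libraries (4 Sca-1+, 5 Sca-1-), bars are means and the grey band is the range of 3 counts across libraries. The fractions do not overlap for any of the 7 genes, and Gp6 is the only gene with a Sca-1+ library at 0.

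Gp1ba, the subunit that binds von Willebrand factor, had 16, 34, 26 and 3 reads in Sca-1+ libraries 7, 13, 15 and 19. In Sca-1- libraries 8, 10, 14, 16 and 22 it had 54603, 73163, 38779, 18418 and 24967 reads. Library 19 was at the floor, and the lowest Sca-1- library was far above the highest Sca-1+ library. In CPM the means were 0.679 ± 0.452 (SD, n = 4) and 2332 ± 1855 (SD, n = 5), which on the log2 scale was a difference of -11.73 (SE 1.10, edgeR adjusted p = 4.2e-05).

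Gp1bb, whose product is joined to GPIbα by disulfide bonds, had 73, 112, 67 and 20 reads in the Sca-1+ libraries. It had 65668, 47237, 63734, 41806 and 38887 in the Sca-1- libraries, in the same order of libraries. Library 19 was again the lowest of the Sca-1+ libraries, whereas library 10, the highest in Gp1ba, was not the highest in Gp1bb. The CPM averaged 2.35 ± 1.24 (SD, n = 4) in Sca-1+ and 2584 ± 1096 (SD, n = 5) in Sca-1-. The log2 fold change came to -10.10 (SE 0.71, edgeR adjusted p = 1.5e-05). Sept5, which in GENCODE M21 shares most of those exons, differed by -1.83 on the log2 scale (SE 0.48, edgeR adjusted p = 0.011). That call was lost in the 6 libraries with consecutive end numbers. The edgeR adjusted p there was 0.066 without a replicate block and 0.102 with it.

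Gp9, the small subunit needed for the complex to reach the surface, had 11, 31, 12 and 5 reads in Sca-1+ and 18747, 11985, 13195, 9833 and 9352 in Sca-1- libraries. Library 13 held most of the Sca-1+ reads of Gp9. The log2 difference was -10.29 (SE 0.75, edgeR adjusted p = 1.6e-05) and -10.91 without library 13. In CPM the means were 0.510 ± 0.377 (SD, n = 4) and 646 ± 334 (SD, n = 5).

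Gp5, a substrate of thrombin that is not needed for the rest of the complex to be expressed, had 48, 48, 67 and 88 reads in the Sca-1+ libraries. It had 105877, 130934, 75451, 41040 and 50462 in the Sca-1- libraries. Gp5 was the only one of the 7 genes whose highest Sca-1+ library was 19, the library that was lowest for each of the other 6. The mean was 2.25 ± 0.836 CPM (SD, n = 4) in Sca-1+ and 4424 ± 3259 CPM (SD, n = 5) in Sca-1-, and the log2 difference was -10.94 (SE 0.87, edgeR adjusted p = 2.2e-05).

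Gp6, the collagen receptor, had 1, 11, 5 and 0 reads in the Sca-1+ libraries and 11268, 13255, 8459, 3931 and 5503 in the Sca-1- libraries. Libraries 7 and 19 were at the floor, and the 0 reads of library 19 allow a level of up to 0.116 CPM. The means were 0.145 ± 0.170 CPM (SD, n = 4) and 463 ± 331 CPM (SD, n = 5). The log2 difference was -11.56 (SE 1.11, edgeR adjusted p = 4.6e-05) and moved to -12.57 without library 13, which held 11 of the reads.

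Clec1b, which encodes CLEC-2, had 93, 167, 106 and 29 reads in the Sca-1+ libraries and 65623, 77259, 53523, 30757 and 30091 in the Sca-1- libraries. It had the most reads of the 7 genes in Sca-1+ libraries 7, 13 and 15 and had the smallest difference between the fractions. The CPM averaged 3.41 ± 1.87 (SD, n = 4) and 2771 ± 1868 (SD, n = 5). The log2 fold change came to -9.66 (SE 0.87, edgeR adjusted p = 3.7e-05). Treml1, which encodes TLT-1, had 23, 38, 20 and 3 reads in the Sca-1+ libraries and 32083, 35363, 28329, 16519 and 18765 in the Sca-1- libraries. Library 19 was at the floor for Treml1 as well. The means were 0.721 ± 0.483 CPM (SD, n = 4) and 1382 ± 804 CPM (SD, n = 5), and the log2 difference was -10.89 (SE 0.91, edgeR adjusted p = 2.6e-05).

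The make-up of the reads of the 7 genes varied less among the 5 Sca-1- libraries than among the few reads of the Sca-1+ libraries for Gp5 and Clec1b. In Sca-1- libraries Gp5 took 25.3% to 33.6% of these reads, Clec1b 16.9% to 19.9% and Gp1ba 11.3% to 18.8%. In Sca-1+ libraries 7, 13 and 15 Clec1b took 34.98% to 37.9% and Gp1ba 6.04% to 8.58%, from 265, 441 and 303 reads. In library 19, with 148 reads in all, Gp5 took 59.5% and Clec1b 19.6%. For every 100 reads of the 16 other megakaryocyte markers there were 17.4 to 23.2 reads of the 7 genes in Sca-1- libraries and 2.59 to 4.30 in Sca-1+ libraries. In Sca-1+ libraries 64.9% to 77.8% of those marker reads came from Mmrn1 and Alox12, against 10.8% to 13.2% in Sca-1-. Without this pair, a choice made after seeing the data, the values were 7.37 to 16.7 in Sca-1+ and 20.1 to 26.7 in Sca-1- libraries. These shares are descriptions of reads and were not tested.

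**Figure D2:**
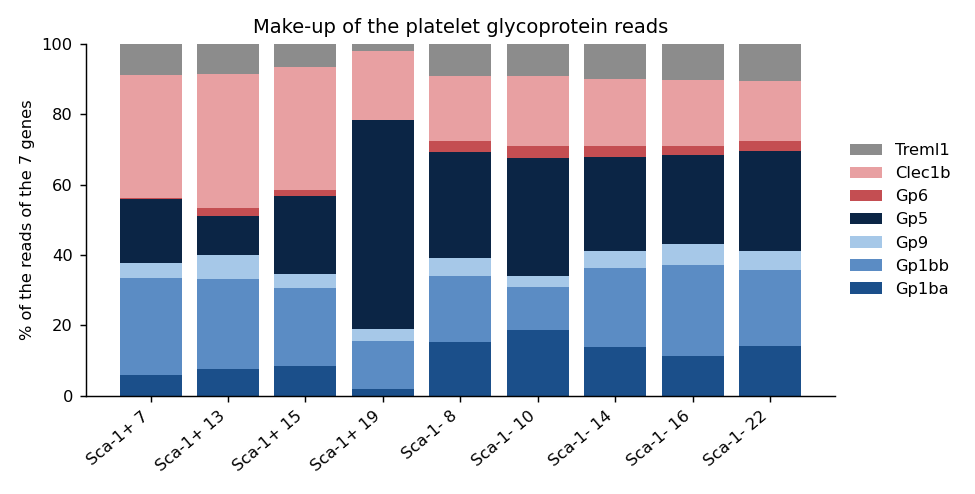
Share of each gene in the reads of the 7 platelet glycoprotein genes, in percent, for each library. Gp5 takes 25.3% to 33.6% in the Sca-1- libraries, and Sca-1+ library 19 stands apart with 59.5% of its 148 reads in Gp5.

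Levels were compared between genes only per length, as RPKM, the CPM on the TMM scale divided by the kilobases of exon. In the Sca-1- libraries the mean RPKM was 2014 ± 1483 for Gp5, 1238 ± 525 for Gp1bb, 986 ± 574 for Treml1, 858 ± 683 for Gp1ba, 733 ± 379 for Gp9, 543 ± 366 for Clec1b and 78.5 ± 56.1 for Gp6 (SD, n = 5 for each). By mean RPKM in Sca-1- libraries Gp5 was 16th of 15865 genes ranked, Gp1bb was 35th and Gp6 was 731st. Gp6 was under each of the other genes in all 5 libraries, at 6.32-fold to 9.05-fold less than Clec1b, the next gene in the order. The neighbours above it changed places between libraries. Gp5 exceeded Gp1bb in 4 of 5 libraries, by a log2 ratio of RPKM of 0.48 ± 0.58 (SD, n = 5), and Gp1ba and Gp9 did not differ beyond their spread, with a log2 ratio of -0.02 ± 0.62 (SD, n = 5). The lengths are those of the exons in GENCODE M21, and the level of Gp1bb depends on how reads shared with Sept5 were counted, which is not given in the sources used here. The order also depends on these lengths, 5900 bases for Gp6 and 881 for Gp9. Before division by length, Gp6 had 13255 reads in library 10 and Gp9 had 11985, and the mean CPM was 463 for Gp6 and 646 for Gp9. Whether reads amplified from poly(A) tails followed exon length was not tested.

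**Figure D3:**
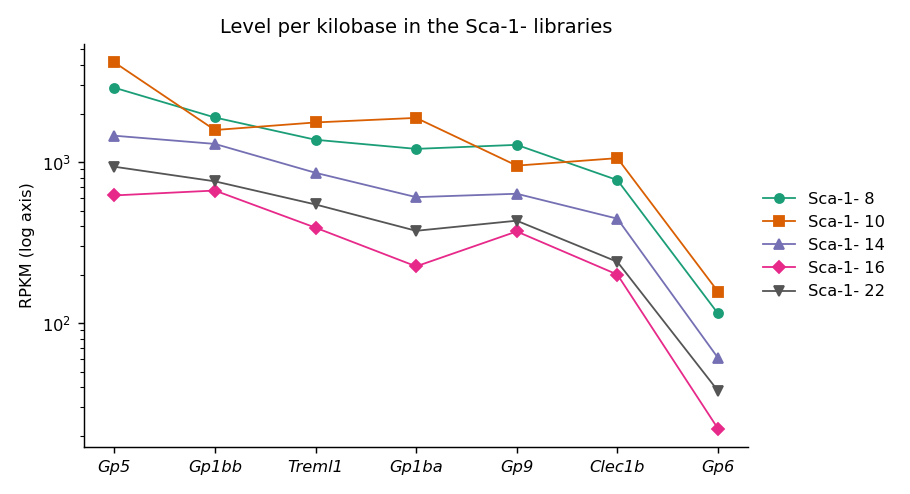
Level per kilobase of the 7 genes in the 5 Sca-1- libraries, as RPKM on a log axis, with genes ordered by their mean. Each line is a library. Gp6 is the lowest gene in all 5 libraries, and library 10 is the highest line except at Gp1bb and Gp9, where library 8 lies above it.

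Within the Sca-1- fraction the genes did not vary by the same amount. Library 16 was the lowest for all 7 genes, and library 10 was the highest for Gp1ba, Gp5, Gp6, Clec1b and Treml1. The range over the 5 libraries on the log2 CPM scale was 3.06 for Gp1ba, 2.83 for Gp6, 2.75 for Gp5, 2.40 for Clec1b and 2.17 for Treml1. For Gp9 and Gp1bb, which were highest in library 8, it was 1.79 and 1.51. With library size alone as the scale the ranges were smaller, 2.06 for Gp1ba and 0.73 for Gp1bb, and library 14 was then the highest for Gp1bb. Ratios within a library do not depend on the scaling. The log2 ratio of RPKM of Gp1ba to Gp5 was -1.29 ± 0.11 (SD, n = 5), and that of Gp1bb to Gp9 was 0.80 ± 0.17 (SD, n = 5). Across these pairs the ratio was less even. Gp1ba to Gp9 was 1.98 in library 10 and 0.607 to 0.953 in the other 4, and Gp5 to Gp9 was 4.38 in library 10 and 1.67 to 2.29 in the others. These pairs were chosen after their values were seen, and no test was made of the difference. TMM factors moved with this order, from 0.581 in library 10 to 1.16 in library 16.

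The genes whose pattern over the 9 libraries was nearest to the mean of the 7 were taken by the smallest root mean square difference of centred log2 CPM among 9860 other genes with an average log2 CPM of at least 3. They were Ppbp, a chemokine of platelet α-granules (0.38), P2ry12, the platelet ADP receptor (0.50), Hpse, which encodes heparanase (0.52), Serpinb2, a plasminogen activator inhibitor (0.55), and Itga2b, which encodes the αIIb chain of the fibrinogen receptor (0.56). The 7 genes themselves lay between 0.32 (Treml1) and 0.72 (Gp5) from their own mean. The measure follows mainly the difference between the fractions, which these genes share with many others.

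Genes that work with the receptors were followed in 6 lists of 82 genes in all, of which 78 were tested. Of these, 53 were lower and 8 higher in Sca-1+, 67.9% lower against 21.4% of all genes, with a median log2 fold change of -3.03 against 0.07 over all genes tested. Scaling to the endothelial markers gave 6 of the 8 higher genes a negative log2 difference (Clec1a, Clec2d, Cblb, Adam17 and Ets1 among them), which did not pass the test for Clec1a and Clec2d, and left Tspan15 and Clec12b higher.

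Among the ligands, 6 of 9 tested were lower in Sca-1+ and 3 did not pass (Selp, Itgam and Col3a1). Vwf, the ligand of GPIbα, which endothelium also makes, was at 75.7 ± 45.3 CPM (SD, n = 4) in Sca-1+ and 778 ± 446 CPM (SD, n = 5) in Sca-1- libraries (log2 difference -3.36 with an SE of 0.55, edgeR adjusted p = 8.4e-04). Pdpn, the ligand of CLEC-2, was at 0.128 ± 0.115 CPM (SD, n = 4) in Sca-1+ libraries, and at 8.64 ± 5.99 CPM (SD, n = 5) in the others, with 5, 1, 1 and 7 reads in the Sca-1+ libraries (log2 difference -6.05 with an SE of 0.89, edgeR adjusted p = 4.5e-04). Thbs1, Col1a1 and Itgb2 (the β chain of Mac-1) had log2 fold changes of -6.19, -6.20 and -8.13. Without Sca-1+ library 19 those of Pdpn, Thbs1, Col1a1 and Itgb2 were -6.67, -6.83, -7.06 and -10.35. The fibrinogen genes Fga and Fgb were at 0 in every library of both fractions. Fgg had reads in Sca-1- library 8 alone (12), and none of these genes passed the filter.

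GPVI and CLEC-2 signal through tyrosine motifs that recruit Syk, the ITAM pathway. Of its 17 genes 14 were lower in Sca-1+ and 3 did not pass (Fyn, Vav3 and Pik3r1). Fcer1g, the chain that GPVI needs for its surface expression, differed far less than Gp6. It was at 162 ± 61.5 CPM (SD, n = 4) in Sca-1+ and 564 ± 175 CPM (SD, n = 5) in Sca-1- libraries (log2 difference -1.80 with an SE of 0.37, edgeR adjusted p = 0.0032). The adaptors Grap2 and Lat and the exchange factor Vav1 had the largest differences, with log2 fold changes of -10.17, -9.58 and -9.60, and Grap2, which had reads in Sca-1+ library 7 alone, was at -14.03 without it. Of 13 inhibitory receptors and phosphatases 8 were lower, with -9.83 for G6b, an inhibitory receptor of megakaryocytes, -7.05 for Ubash3b and -6.81 for Ptprj. G6b was at -10.54 without Sca-1+ library 19. Cblb was higher (log2 fold change 2.44, but -1.63 when scaled to the endothelial markers), and 4 did not pass (Pecam1, Ceacam1, Ceacam2 and Pirb).

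Among partners of the GPIb tail, proteases that shed the receptors and tetraspanins, 8 of 13 tested were lower and 3 higher in Sca-1+, and Calm2 and Rhbdf1 did not pass. Flna, which ties GPIbα to actin, differed by -2.31 on the log2 scale (SE 0.42, edgeR adjusted p = 0.0015), Rhbdf2 of -2.98 and Tspan33 of -3.21. Tspan15 was higher at 5.37, and so was Adam17 at 0.78 with TMM, which was lower when scaled to the endothelial markers (-3.72). The call of Adam17, the protease that cleaves GPIbα, was lost in 6 alternatives. The edgeR adjusted p was 0.061 with RLE normalization, 0.053 without Sca-1+ library 15, 0.0503 without Sca-1+ library 19 and 0.088 without Sca-1- library 14. In the 6 libraries with consecutive end numbers it was 0.083 with a replicate block and 0.098 without it. Of 12 transcription factors of the lineage 9 were lower, with -9.56 for Nfe2, -8.08 for Gata1 and -7.002 for Gfi1b. Ets1 was higher (2.33, but -2.21 when scaled to the endothelial markers), and Gabpa and Mef2c did not pass.

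**Figure D4:**
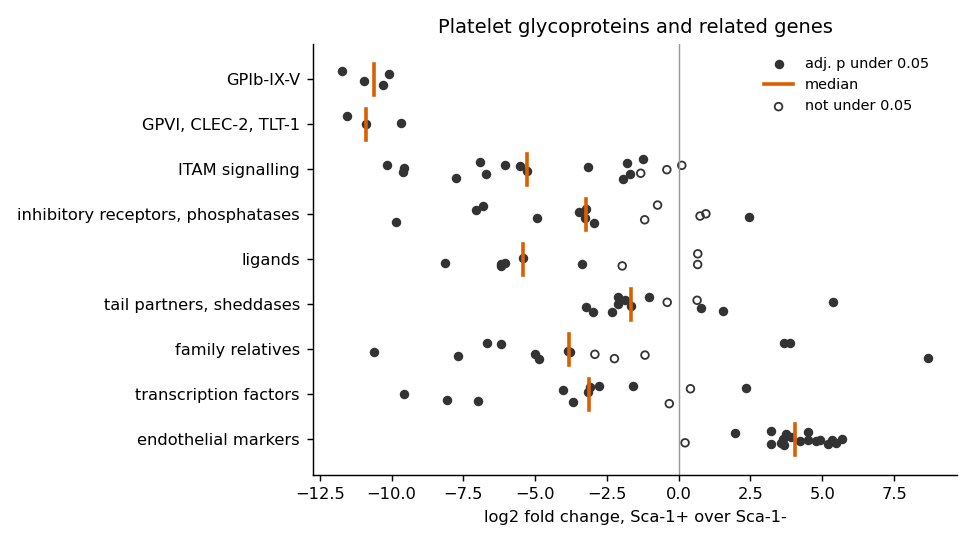
Log2 fold change (Sca-1+ over Sca-1-) of the 7 genes, of 6 lists of related genes and of 18 endothelial markers. Filled points are genes called at an adjusted p of 0.05 and open points are not, and the orange bar is the median of a list. On the TMM scale the 7 genes lie between -11.73 and -9.66, and 17 of the endothelial markers are filled, all to the right of 0.

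Clec1b and Treml1 each sit in a cluster of related genes. Of the neighbours of Clec1b, Clec12b and, with TMM, Clec1a differed from it in direction, whereas Clec9a did not. Clec12b ends 11422 bases before Clec1b. It had 48, 61, 88 and 40 reads in Sca-1+ libraries 7, 13, 15 and 19 and 0 in all 5 Sca-1- libraries, so that it was at least 14.05-fold higher in Sca-1+ (mean CPM over a floor of 3 counts per library, adjusted p = 4.4e-04, edgeR). Clec1a, which encodes CLEC-1 and lies 15436 bases beyond Clec1b, was at 78.8 ± 4.38 CPM (SD, n = 4) in Sca-1+ and 5.31 ± 2.87 CPM (SD, n = 5) in Sca-1- libraries. On the log2 scale it differed by 3.89 (SE 0.39, edgeR adjusted p = 5.8e-05) with TMM and -0.47 when scaled to the endothelial markers, a value that did not pass (adjusted p = 0.41). Clec9a, between them, was counted lower in Sca-1+ (log2 fold change -5.00, edgeR adjusted p = 6.9e-04). It shares 184 exonic bases with Clec1b, 5.6% of its own exons, so its level is uncertain.

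**Figure D5:**
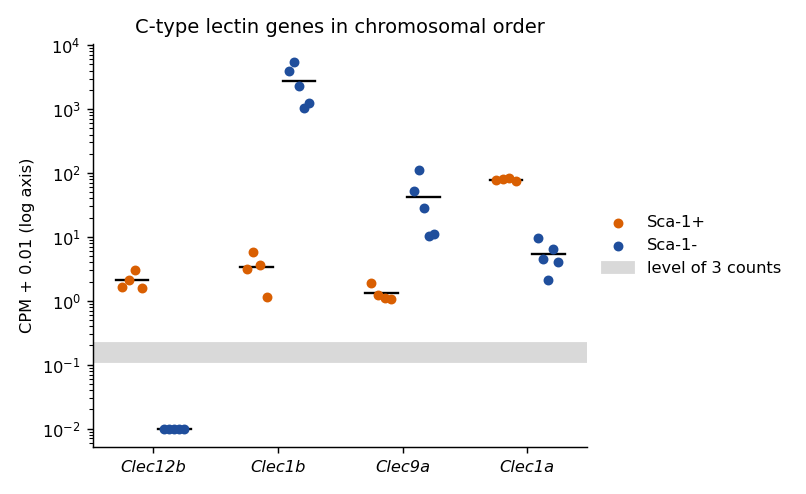
Levels of 4 C-type lectin genes in their order on chromosome 6, as CPM + 0.01 on a log axis. Points are libraries, bars are means and the grey band is the range of 3 counts. Clec1b is higher in all Sca-1- libraries, whereas Clec12b and, with TMM, Clec1a are higher in all Sca-1+ libraries (scaled to the endothelial markers Clec1a differed by -0.47).

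In the TREM cluster, Trem2 ends 5768 bases before Treml1 and was at 0.0581 ± 0.116 CPM (SD, n = 4) in Sca-1+ and 6.13 ± 4.11 CPM (SD, n = 5) in Sca-1- libraries. Treml2, at 129 ± 91.6 CPM (SD, n = 5) in Sca-1-, and Trem1, at 20.7 ± 12.7 CPM (SD, n = 5), were lower in Sca-1+ as well, with log2 fold changes of -10.59 and -7.69. Each of the 3 had reads in a single Sca-1+ library (19 for Trem2, 13 for Treml2 and 7 for Trem1), without which the log2 fold changes were -10.24, -14.61 and -11.97. Clec2d, another C-type lectin gene, was higher in Sca-1+ by 3.67 on the log2 scale with TMM (4.48 without Sca-1- library 22), but scaled to the endothelial markers it was at -0.38, which did not pass (edgeR adjusted p = 0.62). Of the 14 relatives tested 8 were lower and 3 higher in Sca-1+, and Clec7a, Trem3 and Oscar did not pass.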

How the data were processed

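The authors deposited raw counts of reads for each gene in 1 table that covers the 9 libraries. The submitters' processing notes name STAR, featureCounts and mm10. Versions, annotation and the use of strand are not given in the sources used here. The software was edgeR 4.0.16 under R 4.3.3 (TMM, quasi-likelihood F-test, Benjamini-Hochberg over 15937 genes, threshold 0.05, standard errors from the F statistic, log2 CPM with a prior count of 2). The filter, filterByExpr, asked for a level of about 10 counts in at least as many libraries as the smaller fraction had, and 15 counts in total. The common dispersion was 0.301. The fit was first tested on simulated data with 200 changed genes. Exon lengths came from GENCODE M21 (GRCm38), which lacks 849 of the identifiers. Where a name had several identifiers, the identifier in GENCODE was used, and G6b stands for Mpig6b. A related gene and a marker are in the counts of their lists but are not reported here by name. The members and lists were chosen with earlier results of these data known. All 7 members were named, then the ligands, co-receptor and neighbours, the 3 largest called changes in each direction of a list, and the 5 nearest patterns. Alternatives were other scalings, no filter, other tests (DESeq2 1.42.0, limma 3.58.1 voom), a robust fit, replicate blocks and leaving out each library. Plots used matplotlib 3.10.9.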

Additional observations from a re-analysis of the deposited data

Results flagged for a closer look

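In 7 of 93 groups examined, each the values of a gene or sum in a fraction, 1 library lay far from the others of its fraction. Chance gives about 1 in 20 for values without ties, a rate that does not apply to Grap2, Treml2, Trem1 and Trem2. Their other Sca-1+ libraries were tied at 0 reads, so the 1 library with reads was flagged by construction. None of the flagged groups was a platelet glycoprotein gene. Fcer1g, the partner chain of GPVI, was flagged. It had a log2 CPM of 6.17 in Sca-1+ library 19, while the rest of that fraction lay between 7.49 and 7.71. Itgb2 was at 2.95 in the same library and -1.01 to -0.68 in the others, and Trem2 at -1.68 there, from 6 reads, and -3.63 in the others, from 0 reads. Adam17 was at 6.27 in Sca-1+ library 13 and 6.74 to 6.83 in the others, and Treml2 at -1.37 in library 13, from 9 reads, against -3.63 from 0 reads. In Sca-1+ library 7 Grap2 was at -1.50, from 8 reads, and Trem1 at -1.13, from 11 reads, against -3.63 from 0 reads in the others.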

How the results depend on the processing

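All 7 platelet glycoprotein genes were lower in Sca-1+ with an adjusted p under 0.05 in each of the 20 alternatives, and over the 9 fits that left out 1 library the number called stayed at 7. The number of genes called overall was 7137, and 5957 to 6969 with a library left out, 4340 with a replicate block of libraries with consecutive end numbers (5360 in the same 6 libraries without it) and 14231 with scaling to the endothelial markers. The deviations of such consecutive libraries correlated at 0.0420 to 0.148 (mean 0.112) and those of the 17 other pairs at -0.191 to 0.0650 (mean -0.0196). The labels do not state a pairing by end number, so the main fit used no block. Whether these libraries are paired was not settled. Blocking on the mouse number gave 6847 genes. Of the related genes 8 were higher in Sca-1+, 13 with library size only and 2 with scaling to the endothelial markers, and with a library left out 7 to 10 were higher and 47 to 54 lower. Scaling to the endothelial markers, which moved the median of all genes to -4.27, gave negative log2 values for Clec1a (-0.47, edgeR adjusted p = 0.41) and Clec2d (-0.38, adjusted p = 0.62), neither of which passed the test, and for Cblb (-1.63), Adam17 (-3.72), Ets1 (-2.21) and Pecam1 (-4.04). When a Sca-1- library was left out, the mean RPKM in Sca-1- was 603 to 1016 for Gp1ba, 1477 to 2362 for Gp5 and 58.9 to 92.6 for Gp6. No mean moved by more than the SD over the libraries. Leaving out 1 library of 5 cannot move a mean that far, so these fits cannot show that the levels hold. Depth limits Gp6 in Sca-1+, with at most 11 reads in a library.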
